A study of Mus musculus with 2 samples.

Results

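The nuclear genome holds most of the genes for the respiratory chain and the ATP synthase of mitochondria. The genes described here are the GENCODE M21 protein-coding genes whose symbols begin with Ndufa, Ndufb, Ndufc, Ndufs, Ndufv, Uqcr, Cox4, Cox5, Cox6, Cox7, Cox8 or Atp5, without the Ndufaf assembly factors. By this rule 81 of the 21896 protein-coding genes used were members: 38 of complex I, 8 of complex III, 18 of complex IV and 17 of complex V. The rule used symbols only and no measured value, although it was set with earlier results of these data known. Ndufa4 and its paralog Ndufa4l2 count as complex I by symbol, although the Ndufa4 protein was later assigned to complex IV. Atp5s encodes the coupling factor B, which is not a core subunit of the ATP synthase.

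Chromatin accessibility had been measured by DNase-seq in whole adrenal glands of male B6CASTF1/J mice aged 25 days, in 2 libraries of a single group, called replicate 1 and replicate 2. The labels name no treatment and no engineered allele, and as F1 hybrids each held a set of chromosomes from either parental strain. The labels number the animals separately but give both the same donor code, so the spread between the libraries may be partly technical. With 1 group there was nothing to test, and all values below are descriptions given for replicate 1 first and replicate 2 second. DNase I cuts open chromatin, and a stretch cut often is called a DNase I hypersensitive site, or DHS. A gene is called open where a DHS touched a window that reached 1 kb to each side of a start of any of its protein-coding transcripts. Its height is the deposited signal of the strongest such DHS, which from its values appears to be scaled to the library. A gene's percentile is its rank by height among all open genes of the same library.

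The longer deposited lists held 130945 and 157786 DHSs with median heights of 1.01 and 0.720. Each height was a whole number of steps of a fixed size, and read as CPM these steps give totals of 120.0 and 112.57 M counts. The median member stood 1563 and 1054 steps high, so, if a step is a count, counting error on a typical member was small beside the difference between the libraries. The tissue label was checked against marker genes. All 8 markers of the adrenal cortex were open in both libraries, among them Nr5a1, Star and Cyp11a1. Their heights were not high, with medians of 6.89 and 2.91 and median percentiles of 40.9 and 29.0. Mc2r was the lowest of them, at 0.458 and 0.666. Of 6 markers of the medulla 4 were open, among them Th and Dbh, and none of 5 markers of testis germ cells was. Muscle markers were open for 4 and 2 of 6 genes, without Myh6 and Acta1 in either library, and T and B cell markers for 0 and 2 of 3. In a whole gland, fewer cells with an open promoter and a less open promoter in each cell cannot be told apart.

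Complex I oxidises NADH and passes the electrons to ubiquinone, complex III passes them on to cytochrome c, and complex IV hands them to oxygen. These steps pump protons out of the matrix, and complex V, the ATP synthase, uses the returning flow to make ATP. A few core subunits are encoded by mitochondrial DNA, and all other subunits come from the nucleus and are imported. In the adrenal cortex mitochondria also carry the first and the last steps of steroid hormone synthesis. Factors known to bind promoters of nuclear respiratory genes include NRF1, GABP (an ETS factor also called NRF-2), YY1 and the estrogen-related receptor ESRRA, with coactivators of the PGC-1 family.

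Short stretches of these promoters are shown because the letters of NRF1 and YY1 were more frequent in these DHSs than over all open genes. Sequences are from RefSeq on GRCm38.p6 (the build also called mm10), run 5′ to 3′ in the direction of the gene, and span 30 bases around a match. Capitals mark the matched letters, which could lie on either strand. The first set holds the letters of NRF1, GCGCATGC or their reverse complement, within the gene's strongest DHS in both libraries and touched by a deposited footprint in both.
Cox6a1, chr5:115349102-115349131, minus strand: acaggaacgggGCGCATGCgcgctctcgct
Ndufa11, chr17:56717691-56717720, plus strand: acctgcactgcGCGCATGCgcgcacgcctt
Ndufa8, chr2:36049328-36049357, minus strand: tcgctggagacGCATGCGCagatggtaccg
Uqcr11, chr10:80406807-80406836, minus strand: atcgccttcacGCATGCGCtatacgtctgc
Uqcrc1, chr9:108936667-108936696, plus strand: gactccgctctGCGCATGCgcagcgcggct
Atp5k, chr5:108434431-108434460, minus strand: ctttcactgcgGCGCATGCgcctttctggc

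The second set holds the letters of YY1, AAGATGGCG, again within the strongest DHS of both libraries. All matches in this set lay 22 to 35 bases after the RefSeq start of the gene and read in the direction of transcription. The sequence used for this set ended 50 bases after that start, so matches farther downstream could not enter it.
Ndufc1, chr3:51408914-51408943, minus strand: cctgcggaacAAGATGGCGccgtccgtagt
Atp5j2, chr5:145191499-145191528, minus strand: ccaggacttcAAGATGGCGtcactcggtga
Ndufs7, chr10:80249463-80249492, plus strand: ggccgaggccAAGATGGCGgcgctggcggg
Ndufa9, chr6:126849096-126849125, minus strand: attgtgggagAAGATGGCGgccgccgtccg
Ndufs6, chr13:73328433-73328462, minus strand: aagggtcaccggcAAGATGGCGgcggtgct
Ndufs4, chr13:114388045-114388074, minus strand: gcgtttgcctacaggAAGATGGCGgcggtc

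Nearly all members were open. A promoter DHS was found for 78 of 81 members in replicate 1 and for 76 in replicate 2, and the 76 were open in both. Of all protein-coding genes used, 69.2% and 68.9% were open, and 65.6% in both libraries. In the shorter deposited lists 75 members were open in each library, beside 65.1% and 61.7% of all genes. The members not open in 1 or both libraries were all tissue-restricted isoforms: Cox6a2, Cox7b2 and Cox8c in both libraries, Cox4i2 and Ndufa4l2 in replicate 2. Cox8b was open in both longer lists and absent from both shorter ones.

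Member DHSs were higher than those of a typical open gene. The median height was 13.03 and 9.36 over open members, beside 8.85 and 6.25 over all open genes. The median member stood at percentiles 67.9 and 67.5. In the top 10% of open genes stood 7 of 78 and 5 of 76 members, no more than the share that defines that class. The medians of the complexes were 14.1 and 9.12 for complex I, 12.6 and 9.32 for complex III, 8.82 and 9.64 for complex IV, and 13.1 and 9.66 for complex V. The medians of complex IV rest on 15 and 14 open genes, and over the 14 open in both libraries they were 10.9 and 9.64. Without its 7 tissue-restricted isoforms the other 11 genes of complex IV had medians of 14.0 and 11.4. Leaving out mostly low genes raises a median by itself.

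**Figure D1:**
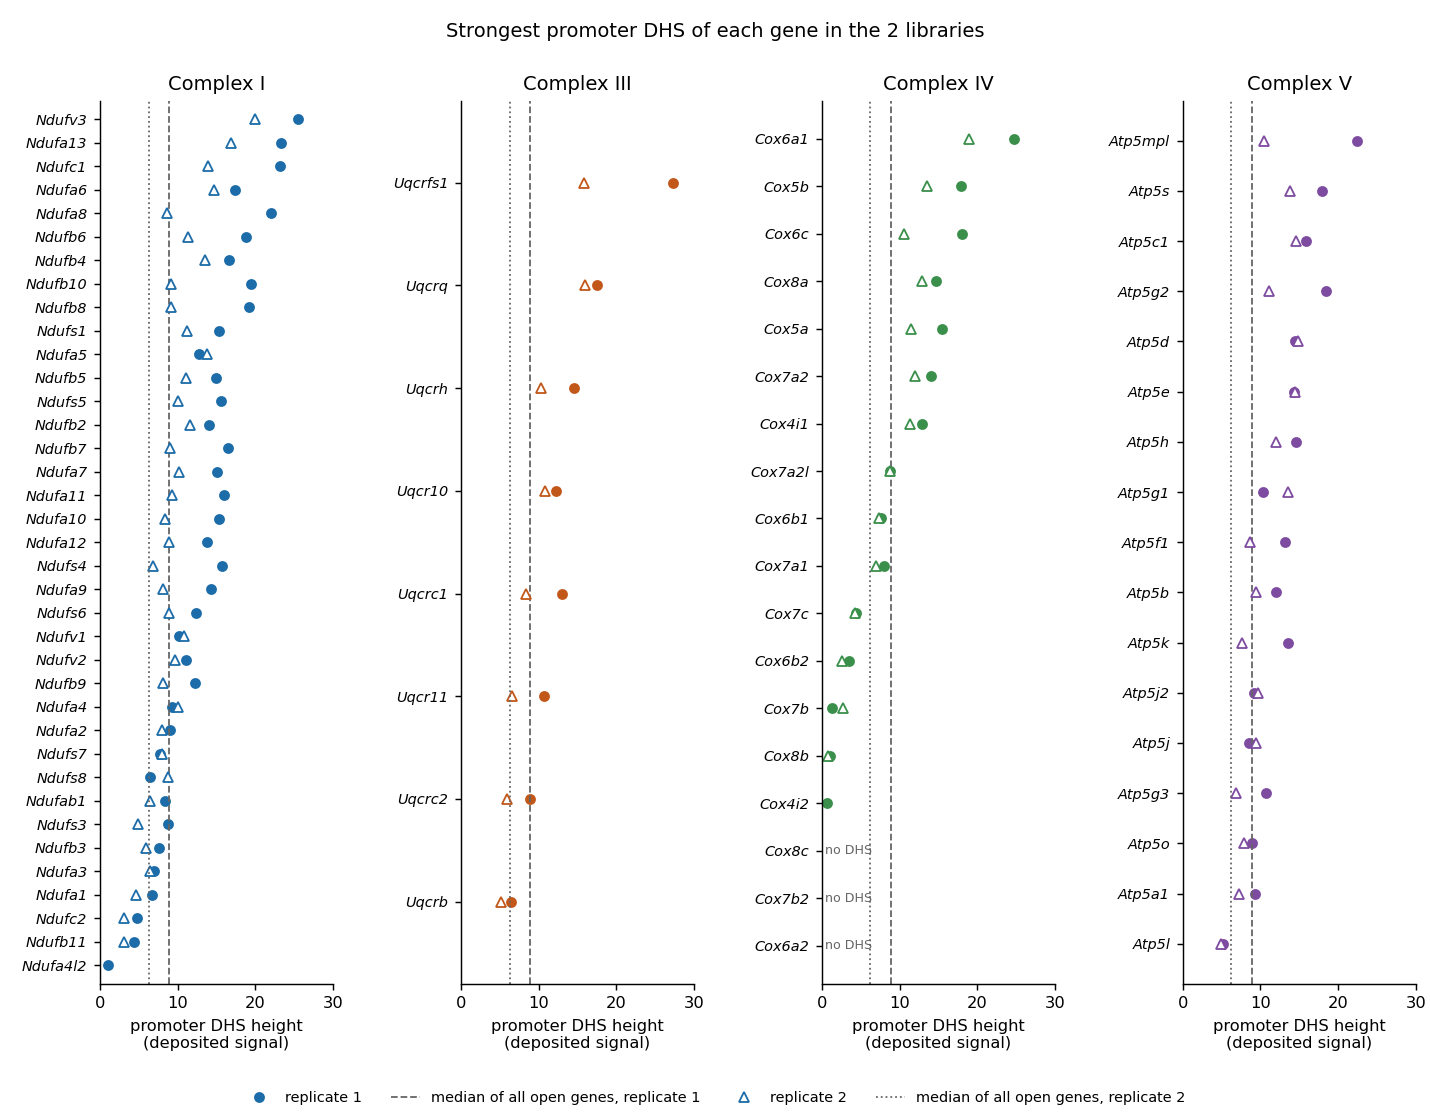
Height of the strongest promoter DHS (x axis, deposited signal) of the genes reported by name, by complex and ordered by mean height, with filled circles for replicate 1 and open triangles for replicate 2. Dashed and dotted lines are the medians of all open genes (8.85 and 6.25), and most members lie to the right of the line of their library, while 3 genes of complex IV have no DHS.

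Among core subunits of complex I, those that carry its flavin and iron-sulfur clusters spanned a wide range. Ndufs1, the large iron-sulfur subunit of the NADH-oxidising arm, had heights of 15.3 and 11.2. Ndufv1, which binds NADH and the flavin, had 10.1 and 10.8, and its partner Ndufv2 had 11.01 and 9.60. These genes lay above the median of all open genes in both libraries. Ndufs7, which holds the last cluster before ubiquinone, had 7.72 and 7.97, below that median in replicate 1 and above it in replicate 2. Ndufs8, a carrier of iron-sulfur clusters next to it, had 6.48 and 8.79, and its strongest DHS was not the same site in the 2 libraries. Ndufs3, a core subunit without a cluster, had 8.71 and 4.89.

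Accessory subunits held both ends of complex I. Ndufv3, a small subunit of the NADH-oxidising arm, had the highest mean of the complex with 25.4 and 19.95, at percentiles 97.1 and 97.4. Its DHS spanned chr17:31519981-31520180 in both libraries and was centred at -35 bp, that is, before the start. Ndufc1 of the membrane arm had 23.2 and 13.9, and Ndufa6 had 17.3 and 14.6. Ndufa13, known also as GRIM-19, had 23.3 and 16.8, a height that belongs to a neighbour's start as described below. At the low end Ndufc2 had 4.69 and 3.06, and the X-linked genes Ndufb11 and Ndufa1 had 4.42 and 3.10 and 6.66 and 4.64. Ndufs4, an accessory subunit whose loss causes Leigh syndrome in humans and mice, had 15.8 in replicate 1 and 6.81 in replicate 2. Ndufab1, the mitochondrial acyl carrier protein, had 8.33 and 6.45. By the letter in the symbol, the medians were 13.7 and 8.74 for Ndufa, 15.7 and 9.12 for Ndufb, 13.9 and 8.47 for Ndufc, 13.8 and 8.84 for Ndufs, and 11.01 and 10.8 for Ndufv. Ndufv was thus the lowest of these in replicate 1 and the highest in replicate 2. It held only 3 genes and Ndufc only 2, so the order of these medians rests on few genes.

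Complex III held the highest member of replicate 1. Uqcrfs1, the Rieske iron-sulfur protein that takes electrons from ubiquinol, had heights of 27.3 and 15.9 at chr13:30545301-30545460, percentiles 98.3 and 91.0. Its DHS held the cyclic AMP response element letters TGACGTCA 29 bases before the RefSeq start, touched by a footprint in both libraries.
Uqcrfs1, chr13:30545327-30545356, minus strand: cggcgtcgcgcTGACGTCAcaaaccctgcg
The core proteins Uqcrc1 and Uqcrc2 were lower, at 12.9 and 8.35 and at 8.85 and 5.92. Uqcrq, a small subunit beside cytochrome b, had 17.5 and 16.0 and was the highest of the complex in replicate 2. Uqcrb, another small subunit there, was the lowest with 6.38 and 5.18. Uqcr10 had 12.2 and 10.9, Uqcr11 had 10.7 and 6.63, and the hinge protein gene Uqcrh had 14.5 and 10.3. All 8 genes were open in both libraries and all were lower in replicate 2.

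In complex IV the broadly expressed subunits were led by Cox6a1, with 24.7 and 18.9 at percentiles 96.6 and 96.3. Cox5b and Cox5a, which face the matrix, had 17.9 and 13.5, and 15.4 and 11.4. Cox6c had 18.1 and 10.6. Cox7c was the low one among autosomal genes without a restricted isoform, with 4.38 and 4.22 at percentiles 29.7 and 37.9. The X-linked Cox7b was lower still, with 1.34 and 2.68.

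In complex V 17 of 17 genes were open in both libraries, Atp5f1 through a DHS nearer to another gene, as described below. The catalytic head is built of alpha and beta subunits around a central stalk. Atp5a1 (alpha) had 9.25 and 7.24, Atp5b (beta) had 12.0 and 9.48, and Atp5c1 (gamma, in the stalk) had 15.9 and 14.5. Atp5o, which joins the head to the outer stalk, had 8.85 and 7.85. The highest means were those of Atp5mpl, a small membrane proteolipid, with 22.5 and 10.5, and Atp5s with 18.0 and 13.8. Atp5l, a subunit of the membrane part, was the lowest with 5.12 and 4.89. Neither catalytic subunit was among the 4 highest genes of the complex.

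Tissue isoforms gave the sharpest contrasts within the set. In all 8 pairs of a broadly expressed and a tissue-restricted gene, the restricted gene was lower or had no DHS in both libraries. Heart and skeletal muscle use Cox6a2, Cox7a1 and Cox8b in place of Cox6a1, Cox7a2 and Cox8a. Cox6a2 had no promoter DHS in either library, and none of its 2 kb window reached an FDR of 0.05. Cox8b had 1.09 and 0.764 beside 14.6 and 12.9 of Cox8a, and its 2 DHSs lay at different sites, centred at 35 and at -363 bp from its start (negative values lie before it). Cox7a1 stood apart from these 2 genes: its DHS at chr7:30184061-30184240 had 7.96 and 6.95, at percentiles 45.9 and 53.9, and it lay at the same site in both libraries. That was 1.76 and 1.73 times lower than the height of Cox7a2, which had 14.0 and 12.0. Of the 6 muscle markers, Mb and Myod1 were open in replicate 1 only, at 1.01 and 0.717, and Ckm had 5.97 and 4.56. Actn3 had 16.2 and 9.65 at a DHS nearest to Zdhhc24, and Myh6 and Acta1 had none. Of the 3 markers of brown fat, a tissue that also uses Cox7a1, Ucp1 had 1.32 and 1.40, Cidea had 4.07 and 2.10, and Dio2 had 0.60 in replicate 1 only. The part of such cells in the height of Cox7a1 was not tested.

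The 150 bases before the RefSeq start of Cox8a and of its muscle paralog Cox8b are set side by side because the heights of these genes differed 13.4 and 16.8 times. In replicate 2 the DHS of Cox8b, at chr7:140900741-140900878, lay outside the stretch shown. Of these bases 55.3% were G or C in both genes, but the stretch of Cox8a held 10 CG pairs and that of Cox8b held 1. No capitals appear because none of the searched letters lay wholly inside either stretch.
Cox8a, chr19:7217617-7217766, minus strand: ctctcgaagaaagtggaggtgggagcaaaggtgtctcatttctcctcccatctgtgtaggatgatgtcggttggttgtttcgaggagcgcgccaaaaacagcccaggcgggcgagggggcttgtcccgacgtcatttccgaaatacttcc
Cox8b, chr7:140900447-140900596, minus strand: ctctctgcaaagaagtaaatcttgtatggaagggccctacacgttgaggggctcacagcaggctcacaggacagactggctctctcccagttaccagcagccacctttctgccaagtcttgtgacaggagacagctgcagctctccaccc

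Testis isoforms were closed or low. Cox7b2 had no DHS and no base at an FDR of 0.05 in either library. Cox8c had no DHS, with 0 and 36 bases at that FDR. Cox6b2 was the open one, at 3.50 and 2.54 beside 7.60 and 7.36 of Cox6b1, that is 2.17 and 2.90 times lower, at the same site in both libraries. No germ cell marker was open in either library. Cox4i2, the isoform of lung that is raised by low oxygen, had 0.642 in replicate 1 and no DHS in replicate 2, beside 12.9 and 11.4 of Cox4i1. Ndufa4l2, which is induced by hypoxia, had 1.07 in replicate 1 only, beside 9.30 and 10.1 of Ndufa4. Cox7a2l, a relative of Cox7a2 that joins complexes III and IV, was open at 8.82 and 8.72, at an internal start of the gene.

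The genes Atp5g1, Atp5g2 and Atp5g3 encode the same mature c subunit of the proton-carrying ring. All were open in both libraries, and their order was not the same in the 2. Atp5g2 was highest in replicate 1 (18.4), ahead of Atp5g3 (10.7) and Atp5g1 (10.3), while in replicate 2 Atp5g1 (13.5) came before Atp5g2 (11.1) and Atp5g3 (6.81). The order within this trio therefore did not hold beyond the spread between the libraries.

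**Figure D2:**
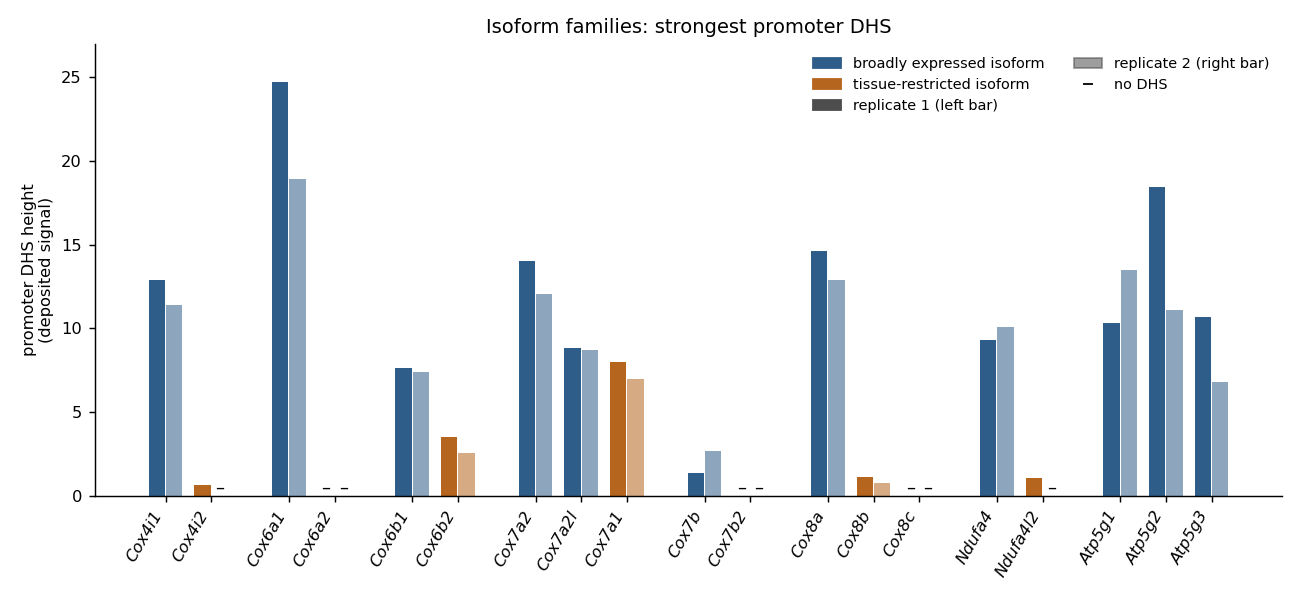
Height of the strongest promoter DHS (y axis, deposited signal) of each gene of the isoform families, with the left bar for replicate 1 and the right, paler bar for replicate 2, and a dash where there was no DHS. Blue marks broadly expressed and brown tissue-restricted genes, and Cox7a1 (7.96 and 6.95) is the highest of the brown bars.

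Members on chromosome X were low. The split by chromosome was chosen after the values were seen. Ndufa1, Ndufb11 and Cox7b had a median height of 4.42 and 3.10, beside 13.5 and 9.48 over autosomal members. The same held for all open genes, with medians of 3.79 and 2.82 on chromosome X and 9.17 and 6.47 on autosomes, in males with a single X. The median open gene of chromosome X stood at percentiles 27.1 and 29.3. Ndufa1 (39.7 and 40.5) and Ndufb11 (29.8 and 31.1) lay above it, and Cox7b (12.8 and 28.3) lay below it.

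Several members have the start of another gene close upstream. The start of a gene on the other strand lay within 1 kb upstream of 24 of 81 members, beside 9.80% of all genes. Among genes open in both libraries it did so for 24 of 76 members, beside 14.4% of all genes. These positions come from the annotation and do not show that an open site is shared. By complex, the counts over all members were 14 of 38 genes in complex I, 3 of 8 in complex III, 1 of 18 in complex IV and 6 of 17 in complex V. Among assembly factors the count was 15 of 44 and among mitochondrial ribosomal protein genes 26 of 78. Examples are Ndufv3 with Wdr4, Ndufs1 with Eef1b2, Uqcr10 with Zmat5 and Ndufs6 with the mitochondrial ribosomal gene Mrpl36. Atp5j, the coupling factor 6 gene, pairs with Gabpa, which encodes the DNA-binding subunit of GABP.

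The strongest DHS was nearest to a start of the gene itself for 68 of 78 members in replicate 1 and 67 of 76 in replicate 2, beside 91.9% and 91.7% of all open genes. The genes whose DHS lay nearer to another start, named after their values were seen, were Atp5f1 (Wdr77), Atp5j (Gabpa), Ndufa13 (Yjefn3), Ndufa7 (Rps28), Ndufb11 (Rbm10), Ndufb3 (Fam126b), Ndufs3 (Kbtbd4), Ndufs6 (Mrpl36) and Uqcrh (Lrrc41), and in replicate 1 Atp5h (Kctd2). For Ndufa13 the DHS was centred at -752 and -702 bp from its start, and the highest DHS nearest to its own start was only 1.44 and 1.31. Atp5f1 had 13.1 and 8.68 at a DHS 769 and 749 bp after its start, and nearest to its own start no DHS in replicate 1 and 0.782 in replicate 2. Uqcrh had 5.75 and 6.82 at its own start. Atp5j had 7.97 and 6.16 at its own start, next to the 8.47 and 9.45 of the DHS at Gabpa. For Ndufa7, Ndufb3, Ndufb11, Ndufs3 and Ndufs6 no separate DHS was nearer to the own start, so a shared site cannot be divided between the genes.

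The centre of the strongest DHS lay within 100 bp of a start for 67 of 78 and 66 of 76 members, beside 66.0% and 64.7% of all open genes. The median member DHS was 180 bp wide in both libraries. It was the same site in both libraries for 74 of 76 members, beside 92.0% of all genes open in both, and the exceptions were Cox8b and Ndufs8.

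**Figure D3:**
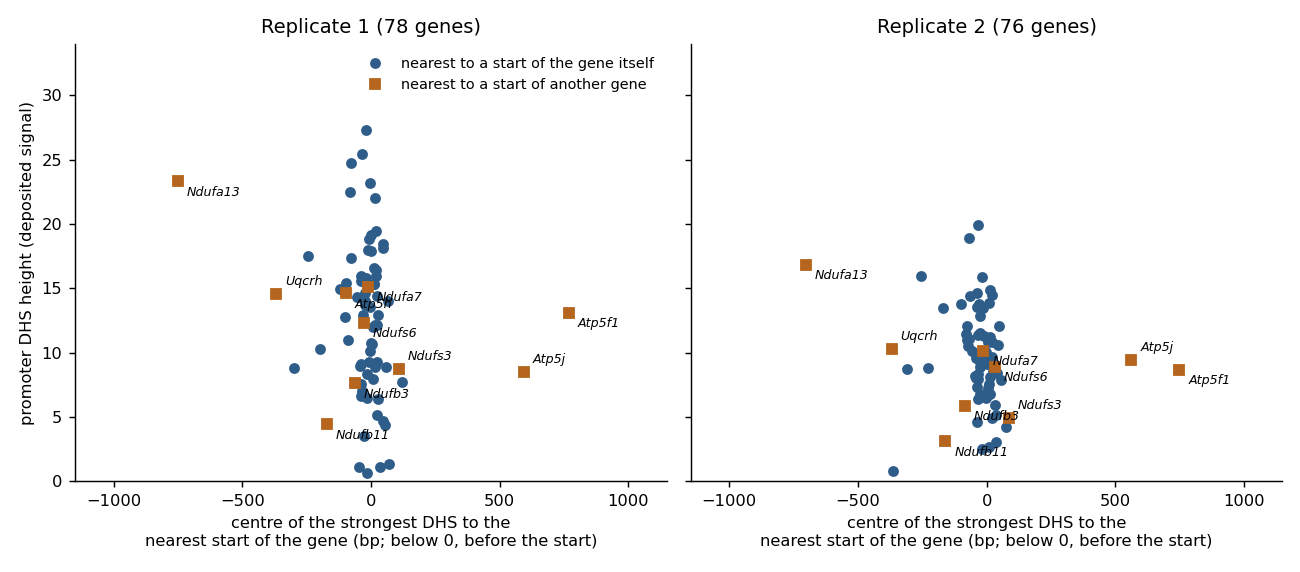
Height of the strongest promoter DHS (y axis, deposited signal) against the distance of its centre from the nearest start of the gene (x axis, bp, negative before the start), for 78 genes in replicate 1 and 76 in replicate 2. Squares are DHSs nearer to the start of another gene, with the member named, and Ndufa13, Uqcrh, Atp5j and Atp5f1 lie farthest out among them.

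Between the libraries most members were lower in replicate 2, as were most genes. Of the 76 members open in both, 11 were higher in replicate 2, beside 11.7% of all genes. The median log2 ratio of replicate 2 over replicate 1 was -0.40 for members and -0.46 for all genes, and with heights divided by the library's summed height it was -0.0018 for members. Ndufa8, an accessory subunit that faces the intermembrane space, fell farthest from 22.0 to 8.56, a log2 ratio of -1.36. Ndufs4 (-1.21), Atp5mpl (-1.10) and Ndufb10 (-1.09) came next. In the other direction Cox7b had 1.00, Ndufs8 had 0.44, Atp5g1 had 0.39 and Atp5j had 0.16. The ratio of Cox7b rested on low heights, and that of Ndufs8 compared different sites. Across the 76 genes the heights of the 2 libraries had a Spearman correlation of 0.76, and of 0.95 across all 14356 genes open in both, which span a wider range. Genes of 1 library share its depth and are not independent.

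**Figure D4:**
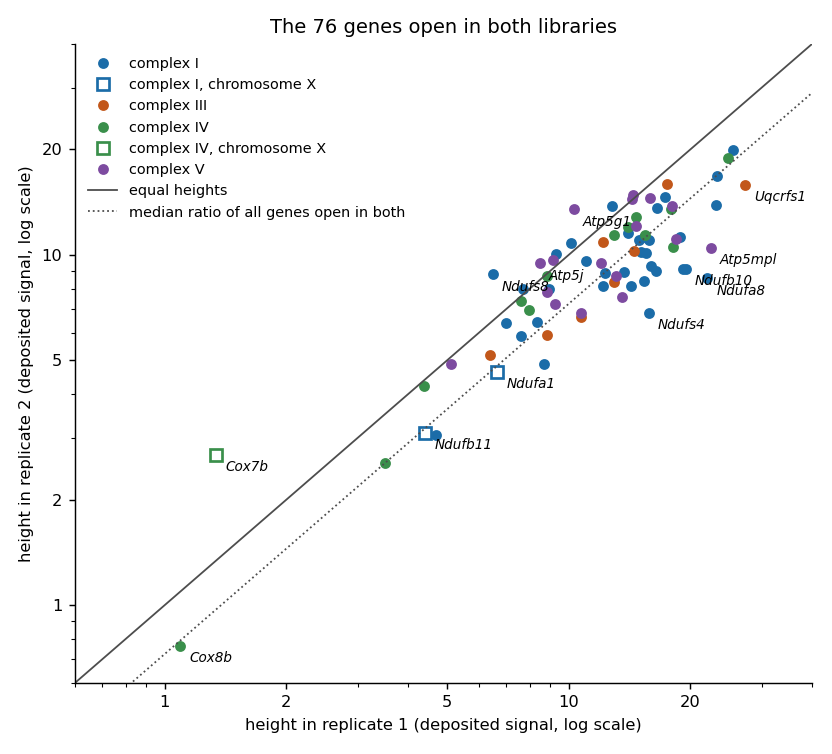
Height of the strongest promoter DHS in replicate 1 (x axis) against replicate 2 (y axis), both deposited signal on a log scale, for the 76 genes open in both libraries, coloured by complex, with open squares for chromosome X. The solid line marks equal heights and the dotted line the median ratio of all genes (-0.46 on the log2 scale), and Cox7b lies above the solid line with 1.34 and 2.68.

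The letters of known regulators were searched on both strands of each gene's strongest DHS. The letters of NRF1 (GCGCATGC) lay in 10 of 78 member DHSs in replicate 1, or 12.8%, beside 5.34% of all open genes. The same 10 genes held them in replicate 2: Atp5g2, Atp5k, Cox6a1, Cox6c, Ndufa11, Ndufa13, Ndufa6, Ndufa8, Uqcr11 and Uqcrc1. In all 10 a deposited footprint touched the letters in both libraries, beside 91.1% and 82.2% of all genes with a match. A footprint is a short stretch within a DHS that was cut less than its flanks. The match of Ndufa13 belongs to the DHS nearest to Yjefn3.

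YY1 letters (AAGATGGCG) lay in 10 of 78 member DHSs in replicate 1 (12.8%) and 13 of 76 in replicate 2 (17.1%), beside 2.84% of all open genes in replicate 1. Among the genes with a match in both libraries were Atp5j2, Ndufa2, Ndufa9, Ndufc1, Ndufs4, Ndufs6, Ndufs7, Uqcrc1 and Uqcrh. These letters contain ATG, and in 9 of the 10 genes of replicate 1 that ATG was an annotated start codon of the gene itself, all but Uqcrh. Over all genes with a match this was so for 40.9% in replicate 1 and 39.6% in replicate 2, where 10 of 13 members had it. A footprint touched the letters in 8 of 10 and 10 of 13 members, beside 63.7% and 49.4% of all genes with a match. In the fixed window from 250 bases before to 50 after the 5′ end, only 3 members held these letters, beside 1.68% of all genes. This end is that of the whole GENCODE gene. For Atp5j2, Ndufs4, Ndufs6 and Ndufs7 it lies before the RefSeq start used for the sequences above, and their matches lay outside this window. Uqcrc1 held both NRF1 and YY1 letters in both libraries, and Ndufa6 held both in replicate 2.

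Letters bound by NR5A1 and by ESRRA (CAAGGTCA), the first a master regulator of the adrenal cortex, lay in 3 of 78 members in replicate 1. That was 3.85%, beside 0.627% of all open genes. The 3 members were Atp5g3, Atp5l and Cox8a in both libraries, and the 2 of their matches that fall within the RefSeq promoter table are shown.
Atp5g3, chr2:73911360-73911389, minus strand: ttgttacaaagTGACCTTGagcgtcttccc
Atp5l, chr9:44920737-44920766, minus strand: gaggggcagccTGACCTTGgaaatggggaa
The match of Atp5g3 was touched by a footprint in both libraries, and those of Atp5l and Cox8a in 1 library each. In the fixed window at the 5′ end 3 members held the letters (3.70%), beside 1.45% of all genes, with Ndufs5 in place of Cox8a.

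GC-box letters of the SP family (GGGCGGGG) went the other way, with 12 of 78 members (15.4%) beside 33.0% of all open genes. ETS letters (CCGGAAGT), those of GABP, lay in 6 members, or 7.69%, beside 6.90%. Cox8a held them at 2 places, and the Gabpa-side DHS of Atp5j held them without a footprint in either library. CRE letters (TGACGTCA) lay in 4 members, Atp5d, Ndufa10, Ndufb2 and Uqcrfs1, beside 3.39%. A footprint touched all 4 in both libraries, beside 95.3% and 82.5% of all genes with a match. NFY letters (CCAATCA) lay in 4 members beside 8.95%, and E-box letters (CACGTG) in 5 beside 8.43%. These 8 searches read fixed letters only, and no match says only that the letters were not in the window.

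**Figure D5:**
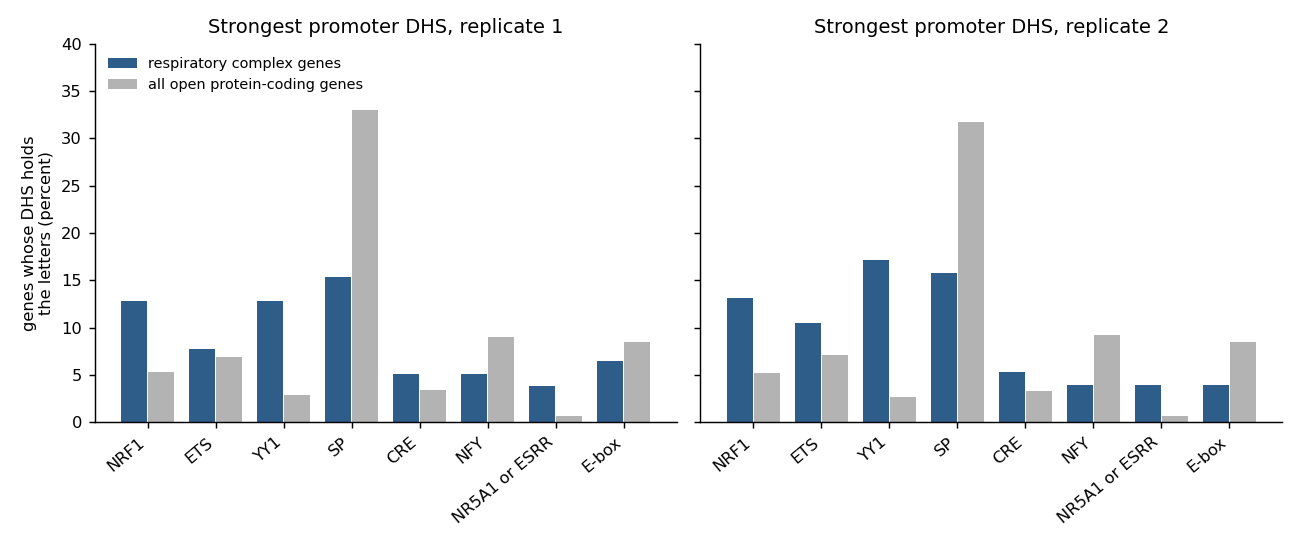
Share of genes (y axis, percent) whose strongest promoter DHS held the letters of each motif (x axis), for respiratory complex genes in blue and all open protein-coding genes in grey, in replicate 1 (left) and replicate 2 (right). The blue bars exceed the grey ones for NRF1 (12.8% and 5.34% in replicate 1) and YY1 (12.8% and 2.84%), and fall short for SP (15.4% and 33.0%).

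Footprints of any kind were present in 77 of 78 member DHSs in replicate 1 and in 76 of 76 in replicate 2, beside 97.0% and 91.8% of all open genes. The DHS of Cox4i2 was the one without. The median was 4 footprints a DHS in members in both libraries, and 4 and 3 over all open genes.

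CpG content was set beside openness after the values were seen, since promoters rich in CpG tend to be open in many tissues. The ratio of observed to expected CG pairs was taken over 250 bases before to 50 after the 5′ end. Of the 38 members at a ratio of 0.75 or more all were open in both libraries, beside 97.9% and 96.9% of all genes in that class. Of the 11 members under 0.4, 10 and 9 were open, beside 35.0% and 36.9%. Their median heights were 8.99 and 8.68, beside 2.73 and 1.72 over all open genes of that class. The ratio describes the 5′ end, and for some of these members, such as Cox7a2l and Atp5f1, the strongest DHS lay elsewhere, so these heights are partly not those of CpG-poor starts.

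Other genes of the pathway had similar heights. Complex II, which lies outside the rule, feeds electrons from succinate, and its 4 genes had a median of 14.0 and 10.3. Sdha had 17.1 and 10.7, Sdhb 13.7 and 16.5, Sdhc 14.3 and 9.89, and Sdhd 10.97 and 9.45 at a DHS nearest to Timm8b. Cycs, the somatic cytochrome c, had 24.95 and 21.04, and the testis form Cyct had no DHS. Cyc1, the cytochrome c1 subunit of complex III, had 9.02 and 5.11. All 44 assembly factors were open in both libraries with medians of 14.9 and 9.64. They ranged from 4.26 (Ndufaf1) to 27.9 (Ndufaf4) in replicate 1 and from 2.76 (Surf1) to 19.6 (Foxred1) in replicate 2. Medians were 12.9 and 9.41 over cytosolic and 12.1 and 8.67 over mitochondrial ribosomal protein genes, close to those of the members.

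The 12 genes of regulators were open in both libraries. Esrra had the highest DHS, 29.9 and 24.3 at percentiles 99.0 and 99.5. Yy1 had 21.2 and 18.4, Nrf1 had 14.5 and 10.3, and Gabpa had 8.47 and 9.45. The GABP partners Gabpb1 and Gabpb2 had 6.58 and 6.42, and 19.4 and 7.52. Tfam, which packs mitochondrial DNA and starts its transcription, had 19.8 and 10.1, and its partners Tfb1m and Tfb2m had 12.6 and 15.6, and 17.8 and 16.4, the last at a DHS nearest to Cnst. Of the coactivators, Ppargc1a was the low one at 0.542 and 0.720, percentiles 3.52 and 7.79, while Ppargc1b had 10.8 and 7.13 and Pprc1 had 9.22 and 10.1.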

How the data were processed

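The deposited peak lists give DHSs in mm10, 2 lists per library, called on that library's own filtered alignments per the file headers. The height is a deposited signal value, a whole multiple of 1 step per library within 0.02 of a step; that it is scaled to the library's depth is inferred from these steps. The list of FDR values (q-values) deposited per library holds stretches at 0.05 or less, and every deposited footprint carries the threshold 0.01. For aligner, callers and versions the entry is: not given in the sources used here.

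Genes and starts came from GENCODE M21, with 21896 of 21938 protein-coding genes on 21 chromosomes kept after dropping repeated symbols, and 54274 coding starts. A DHS touching the 1 kb on either side of a start was assigned to the gene, and the strongest was kept. The central 36 bases of each member DHS occur once in the reference. Of 81 members 66 matched the RefSeq promoter table, and among the others were Atp5a1, Atp5mpl, Cox4i1, Cox4i2, Cox6a2, Cox6c, Cox8c, Ndufa2, Ndufa4l2, Ndufb9, Ndufs1, Uqcrb, Uqcrc2 and Uqcrq. Computations used Python 3.11.15, numpy 2.4.6 and pandas 2.3.3. The assignment was tested on simulated DHSs at genes with a single coding start and no other coding start nearby. It recovered 200 of 200 genes given a DHS in the window and called 0 of 200 open where the DHS lay outside it. The choice between neighbouring starts was not tested.

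Members and lists were chosen with earlier results of these data known. The named genes were all isoform family members, members not open, the 4 highest and 4 lowest of each complex, core subunits, the 4 largest ratios each way, and all complex II, cytochrome c and regulator genes. Others were named after their values were seen. Some genes that enter the counts are not reported here by name. Alternatives were other windows, starts and peak lists, own DHSs only, summed heights and each library alone.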

Additional observations from a re-analysis of the deposited data

How the results depend on the processing

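Of 115 values recomputed under another setting, 100 stayed within a set limit. The limit was the spread between the libraries for heights and percentiles and 1.5 times for counts. For the log2 ratio it was the spread over member genes. Only the log2 ratio could change sign, and it did not. Heights and percentiles with 1 library left out stay within their limit whatever the data, so they are no test. The median percentile of members moved from 67.7 to 66.7 with 500 bp on either side, 66.9 from the 5′ end only, 66.1 with the shorter lists and 69.7 with only DHSs nearer to a start of the gene than to any other. The complex IV median of 9.23 became 8.56 with 2 kb on either side, 10.5 from the 5′ end only and 11.7 with the shorter lists. Summed over all DHSs touching the window, the medians of complexes III, IV and V were 14.0, 12.7 and 13.9. The median log2 ratio of -0.40 became -0.0018 with heights divided by the library's sum. In the window from 250 before to 50 after the 5′ end, YY1 letters were found in 3 members (10 in the DHS), NFY in 7 (4) and E-box in 8 (5), and E-box in 3 in the DHS of replicate 2. E-box shares turned, with 6.41% of members beside 8.43% of genes in the DHS and 9.88% beside 7.73% in the window, and NFY in the window was 8.64% beside 9.12%. The cause of these shifts was not tested. No paired analysis was possible because the series has 1 group. With 1 library left out, the value is that of the other library.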

Other observations

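Every DHS of the longer list, promoter DHSs included, was counted for the gene whose coding start was closest to its centre, up to 100 kb away. Open members had a median of 2.5 DHSs in both libraries, beside 5 over all open genes. Among the members with many were Cox7a2l with 14 and 11, Cox4i2 with 13 and 12, Ndufb4 with 13 and 10, Atp5o with 12 and 11 and Uqcrfs1 with 11 and 15. Cox4i2 was thus closed or nearly so at its start while other DHSs were counted for it. Medians were also low in open assembly factors (2 and 3), mitochondrial ribosomal (3 and 2), cytosolic ribosomal (3 and 3) and complex II genes (2 and 2), and 12.5 in both libraries over cortex markers. Gene density around the members was not taken into account.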
